A study of Mus musculus with 4 samples.

Results

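The arrays of this series carry a number, 48 or 50, in their titles, and the comparison described here is between the 2 arrays titled T50 and the 2 arrays titled T48. The 4 arrays are the whole series, and all were used. Each measured total RNA of forelimbs from mouse embryos of strain C57BL/6 at stage E11.5. Each number covers 1 array of wild-type limbs and 1 array of Shox2 knockout limbs, so that genotype is balanced over the numbers. Every array is a pool of 3 to 4 forelimbs, and the series' design text says that the embryos came from 2 pregnancies. The labels do not say what the numbers stand for, and they do not describe the knockout allele. The difference between the numbers therefore describes 2 sets of limb pools that share a nominal stage. The pools may differ in exact age, dissection, litter or handling. With 1 array per number and genotype, these cannot be told apart.

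Around this stage the mouse forelimb bud is a paddle of mesenchyme under ectoderm. Among the posterior Hox genes, Hoxa13 and Hoxd13 mark its distal, future hand region, while Meis and Shox2 mark more proximal parts. Cartilage condensations, tendon cells and muscle cells that migrated in from the somites are beginning to differentiate, and blood, vessels and ingrowing nerves are dissected along with them. These programs change quickly with age, and for this reason their members were followed one by one.

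A gene was tested when its probe set carried a gene name and its mean over the 4 arrays reached percentile 40, which lay at 5.60 on the log2 scale. Of 25206 probe sets, 23185 were named and 14095 were tested. Values were deposited on a log2 scale between 5.04 and 14.1, and Pearson's r between arrays across probe sets was 0.995 to 0.997. All differences below are T50 minus T48 on the log2 scale, given as the mean over both genotypes with the standard error (SE) of the fit. Adjusted p-values are limma's, with genotype as a block and Benjamini-Hochberg adjustment over all tested genes, and the threshold was 0.05. Each level is that of a single array (n = 1 per number and genotype).

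Several microRNA loci were among the genes past the test. A microRNA is a short RNA that pairs with messenger RNAs mainly through its seed, bases 2 to 8 of the mature strand, and loci with the same seed form a family. The mature sequences of the families that carried most of the difference are given here from RefSeq (GRCm38.p6), 5′ to 3′, with the seed in capitals. For miR-181 the loci are Mir181b-1, Mir181b-2, Mir181a-2, Mir181c and Mir181d, where Mir181b-1 and Mir181b-2 yield the identical mature strand. The first 4 of these loci were lower in T50, and Mir181d was not:
miR-181b-5p: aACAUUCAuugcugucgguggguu
miR-181a-5p: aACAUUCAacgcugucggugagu
miR-181c-5p: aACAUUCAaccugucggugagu
miR-181d-5p: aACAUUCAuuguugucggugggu
The strand of miR-181b-5p lies at chr1:137966650-137966673 (+) in Mir181b-1 and at chr2:38853845-38853868 (+) in Mir181b-2. Those of miR-181a-5p, miR-181c-5p and miR-181d-5p lie at chr2:38852741-38852763 (+), chr8:84178924-84178945 (-) and chr8:84178759-84178781 (-).

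Mir130a and Mir301, both lower in T50, passed the filter only through T48. The following seed was shared by them and by Mir721, which did not pass the test. It is shown because the members differ only outside the capitals:
miR-130a-3p: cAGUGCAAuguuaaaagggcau
miR-301a-3p: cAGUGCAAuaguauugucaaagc
miR-721: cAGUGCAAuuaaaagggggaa
These strands lie at chr2:84741116-84741137 (-), chr11:87113054-87113076 (+) and chr5:136375777-136375797 (-). Mir103-2 and Mir107, both lower in T50, also have a seed in common, and their strands are almost the same over their whole length:
miR-103-3p: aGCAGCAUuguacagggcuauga
miR-107-3p: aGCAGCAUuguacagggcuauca
They lie at chr2:131288103-131288125 (+) and chr19:34820700-34820722 (-). The values of these loci are given further on.

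In the comparison of the numbers, 62 genes were higher and 79 lower in T50 at an adjusted p under 0.05. These are 0.44% and 0.56% of the tested genes, or 1% together, and the fold changes ran from 1.31 to 9.53 with a median of 1.42. All 141 had the same sign in both genotypes, and in 127 of them the T50 arrays did not overlap the T48 arrays, against 36.9% of all tested genes. The fit's residual is the gap between the differences of the 2 genotypes. A small p therefore favours genes with the same sign and separate arrays, so these shares are no separate support. A fold change of at least 1.5 in the mean was seen in 52 genes (0.369%), of which 20 were higher and 32 lower. At least 1.5-fold in the same direction in each genotype separately was reached by 29 genes (0.206%), 9 higher and 20 lower, and all 29 were among the 141. Among all tested genes 32.3% read higher and 28.8% lower in T50 in both genotypes, and the list counts below are to be read beside these shares. Across genes the differences of the knockout arrays and those of the wild-type arrays correlated with a Pearson's r of 0.388 and a Spearman's rho of 0.328. These 2 differences share no array, but genes are not independent replicates.

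The number of genes past the adjusted threshold was not stable. The fit leaves 1 residual degree of freedom per gene, beside 8.56 prior degrees of freedom estimated from all genes together. Without genotype as a block, limma called 0 genes (968 at an unadjusted p under 0.05, smallest adjusted p 0.0772). With the dim probe sets tested too it called 0 (2977 at an unadjusted p under 0.05), and with values rounded to 2 decimals 0 as well (1606). With an intensity trend in the error it called 762, and all 141 genes were among them. At an unadjusted p under 0.05 the main fit gave 1040 genes higher and 1142 lower, 7.38% and 8.1% of those tested. The adjusted p-values below are therefore best read as an order of genes, and the values of the 4 arrays carry the comparison.

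**Figure D1:**
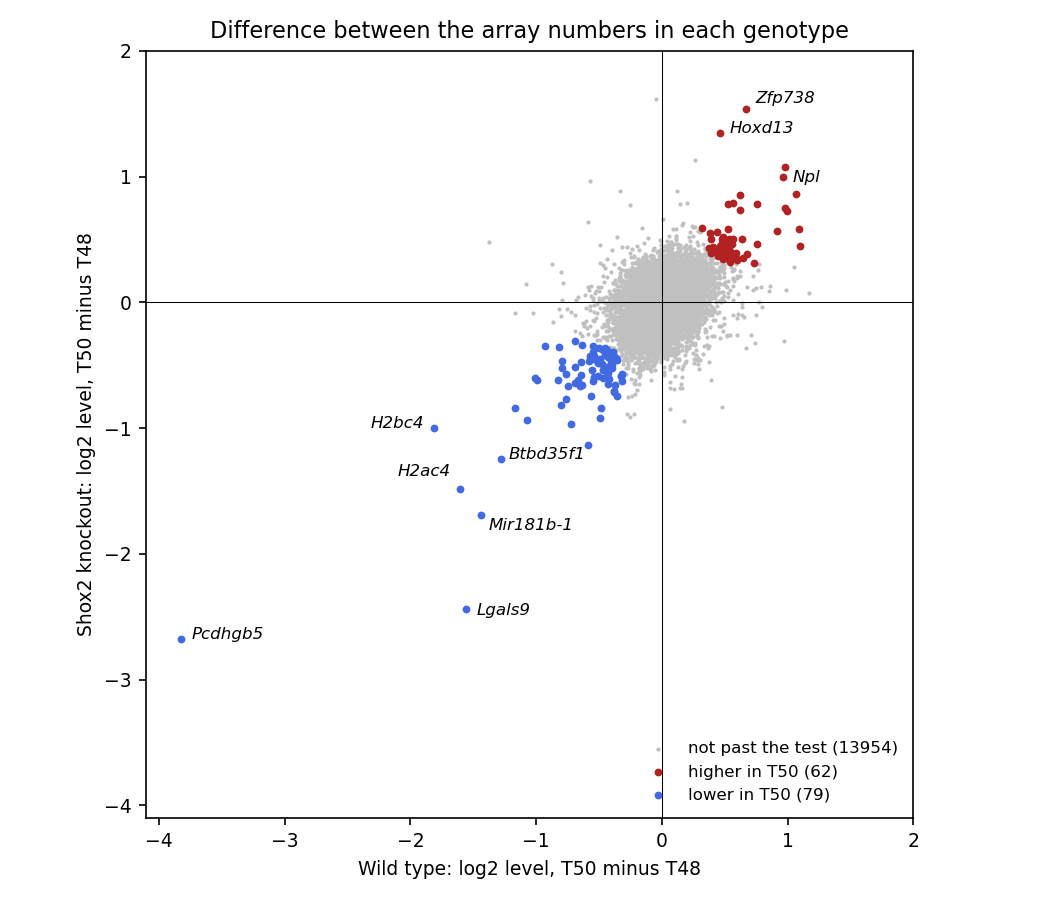
Difference T50 minus T48 of each tested gene in the wild type (horizontal) and in the Shox2 knockout (vertical), on the log2 scale. Grey points are genes not past the test, red points the 62 higher and blue points the 79 lower in T50. All coloured points lie in the lower left or upper right quadrant, which the test itself favours, and Pcdhgb5 lies farthest from the centre.

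The largest difference was in Pcdhgb5, a member of the clustered gamma protocadherins, cell adhesion proteins best known from neurons. Its level was 8.45 (knockout) and 9.39 (wild type) in T48 but 5.77 and 5.57 in T50, around the filter level of 5.60. Its difference was -3.25 (SE 0.20, adjusted p = 9.50e-05). The related Pcdhgb6 read 7.51 and 7.57 in T48 and 6.57 and 6.49 in T50, a difference of -1.01 (SE 0.08, adjusted p = 0.000480). The numbers did not overlap in either gene, and knockout and wild type lay near each other within each number except for Pcdhgb5 in T48. Of 42 tested clustered protocadherins, a group singled out after its values were seen, 2 were lower and 1 was higher, Pcdhb8 with 0.41 (SE 0.08). Among all tested genes 0.56% were lower and 0.44% higher. Over these 42 genes the median was -0.02, and 22 of them belong to the gamma cluster, where the median was -0.05. Neighbouring members of a protocadherin cluster share sequence, so signal may be split between their probe sets.

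Lgals9, which encodes galectin-9, a sugar-binding protein of immune cells and epithelia, had 9.16 (knockout) and 8.06 (wild type) in T48 and 6.72 and 6.50 in T50. The knockout difference was -2.44 and that of the wild type -1.55 (SE of the mean difference 0.16, adjusted p = 0.000604). Both T48 arrays lay above both T50 arrays, with a wide gap between the genotypes in T48. Btbd35f1 read 7.48 and 7.31 in T48 and 6.23 and 6.03 in T50 (-1.27, SE 0.08, adjusted p = 9.50e-05). Pagr1a, which encodes a subunit of a histone H3 lysine methyltransferase complex, was among the brighter genes, with 10.66 and 10.63 in T48 and 9.81 and 9.46 in T50 (-0.84 and -1.17 in the 2 genotypes, SE of the mean 0.09, adjusted p = 0.00141). Tmem30b, a partner subunit of lipid flippases, had a difference of -0.81 (SE 0.08, adjusted p = 0.00150). Fv1, a restriction factor against retroviruses, had one of -0.85 (SE 0.08, adjusted p = 0.00209), and Gm21370 one of -0.77 (SE 0.08, adjusted p = 0.00192).

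Among the genes higher in T50, Npl, which encodes the lyase that breaks down sialic acid, had the smallest p. Its level was 7.02 (knockout) and 7.04 (wild type) in T48 but 8.10 and 8.02 in T50, so that the genotypes nearly coincided within each number. Its difference was 1.03 (SE 0.08, adjusted p = 0.000463). The mean difference was larger in Zfp738, a zinc finger gene outside the naming rule, with 1.10 (SE 0.16, adjusted p = 0.0150). Cyp4f16, a cytochrome P450, read 7.45 and 7.63 in T48 and 8.45 and 8.59 in T50 (0.98, SE 0.08, adjusted p = 0.000480). Gm1943 differed by 0.96 (SE 0.08) and Irak1bp1, whose product binds a kinase of interleukin-1 signalling, by 0.86 (SE 0.09). Lbp, the lipopolysaccharide-binding protein, was higher by 0.77 (SE 0.08) and H2-D1, a class I histocompatibility heavy chain, by 0.65 (SE 0.09). Pid1, an adaptor of insulin signalling, read 7.32 and 7.38 in T48 and 7.90 and 7.90 in T50 (0.55, SE 0.08, adjusted p = 0.0114). Rps7, a ribosomal protein, was higher by 0.73 (SE 0.08). Rps7 has processed copies and H2-D1 near-identical relatives, so these probe sets are uncertain.

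**Figure D2:**
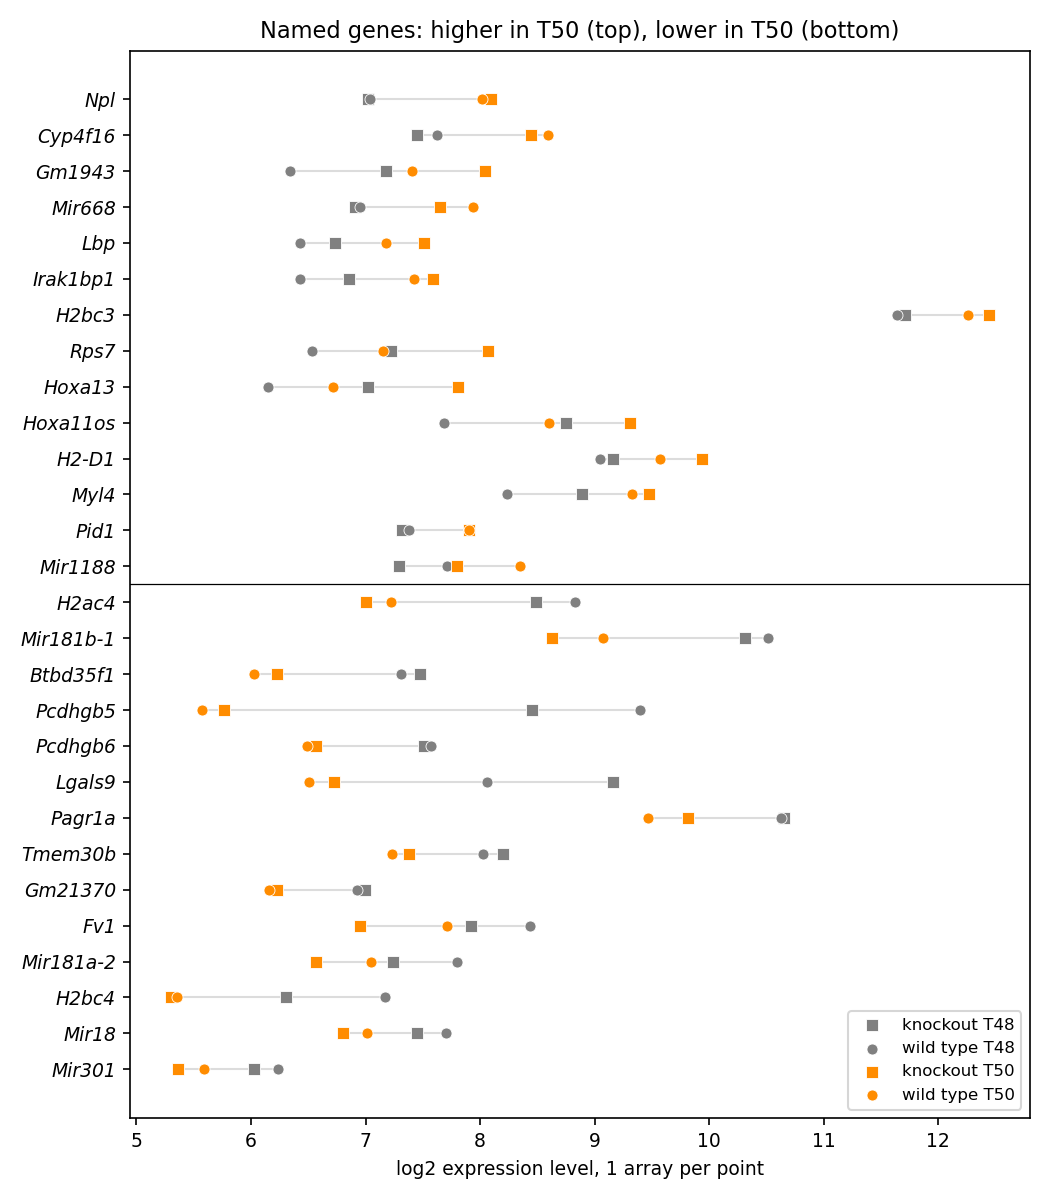
Levels of the 14 genes named as higher (top) and the 14 named as lower in T50 (bottom), ordered by p within each block. Each point is 1 array on the log2 scale, grey for T48 and orange for T50, with squares for the knockout and circles for the wild type. In most genes both orange points lie on the same side of both grey points, while in Hoxa13, Hoxa11os and Rps7 the difference between the genotypes is about as wide as that between the numbers.

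Replication-dependent histone genes went in both directions. H2ac4 read 8.49 and 8.83 in T48 and 7.01 and 7.22 in T50, and its difference of -1.55 (SE 0.08) had the smallest adjusted p, 5.87e-05. H2bc4 read 6.30 and 7.17 in T48 and 5.30 and 5.36 in T50 (-1.41, SE 0.15, adjusted p = 0.00355). Its T50 mean of 5.33 lay under the filter level of 5.60, so it was tested only through T48. The p-value of H2bc4 is therefore no separate support. H2bc3, the neighbour of H2ac4, instead read 11.71 and 11.64 in T48 and 12.44 and 12.26 in T50 (0.68, SE 0.08, adjusted p = 0.00438). Of 28 tested histone genes 2 were lower and 1 was higher, beside 0.56% and 0.44% of all tested genes. Their median was -0.06. Members of this family are near-identical copies, so the split of signal between their probe sets is uncertain.

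Posterior Hox genes and distal limb genes were examined as markers of how far the limb bud had developed and of how far proximally it was cut. Of 9 posterior Hox genes 2 were higher in T50 and none lower, beside 0.44% of all genes higher. Hoxd13, a determinant of the hand plate, stood at 7.91 (knockout) and 6.58 (wild type) in T48 and at 9.25 and 7.04 in T50. The knockout difference was 1.34 and the wild-type difference 0.46 (mean 0.90, SE 0.16, adjusted p = 0.0368). Hoxa13, its counterpart in the other cluster, read 7.02 and 6.15 in T48 and 7.81 and 6.72 in T50 (0.68, SE 0.08, adjusted p = 0.00641). In both genes the wild-type T50 array lay below the knockout T48 array, so the numbers separated only within a genotype. Hoxa11os, a transcript from the strand opposite Hoxa11, read 8.75 and 7.69 in T48 and 9.31 and 8.60 in T50 (0.74, SE 0.09, adjusted p = 0.00803). Here too the wild-type T50 array lay below the knockout T48 array.

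The other 7 posterior Hox genes did not pass. Hoxd11 had a difference of -0.20 (SE 0.08), Hoxa11 of 0.15 (SE 0.08), Hoxd9 of -0.14 (SE 0.08) and Hoxd10 of -0.08 (SE 0.09). Hoxd12 had one of 0.08 (SE 0.08), Hoxa10 of 0.07 (SE 0.08) and Hoxa9 of -0.02 (SE 0.08). The 2 that passed are thus the group 13 genes of both clusters, and the list's median was 0.07 (-0.03 for the knockout, 0.05 for the wild type) beside 0.01 over all tested genes. Of 19 tested anterior and central Hox genes none passed in limma (7 at an unadjusted p under 0.05, 2 higher and 5 lower), with a median of -0.08.

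In the wider list of 20 distal mesenchyme genes, Tfap2b, a transcription factor of the distal bud, was the one past the test. It read 8.42 and 8.35 in T48 and 8.85 and 8.72 in T50 (0.40, SE 0.08, adjusted p = 0.0429). Lhx9 had a difference of 0.21 (SE 0.08), Cyp26b1, which degrades retinoic acid, of 0.21 (SE 0.08), and Bambi, a decoy receptor, of 0.19 (SE 0.08), with adjusted p-values of 0.243 to 0.280. Over the list 8 genes read higher and 4 lower in both genotypes, and the median was 0.03 (-0.05 for the knockout, 0.11 for the wild type). Of 12 tested proximal genes none passed (4 at an unadjusted p under 0.05, 1 higher and 3 lower), 2 read higher and 6 lower in both genotypes, and the median was -0.08. Shox2 itself belongs to this list. Its knockout levels were 9.58 (T48) and 8.88 (T50), both below the wild-type levels of 10.57 and 10.37 (-0.45, SE 0.11, adjusted p = 0.10). The labels do not say where its probes lie relative to the deletion. Alx1 had a difference of 0.28 (SE 0.08, adjusted p = 0.121) and Alx4 of -0.25 (SE 0.10, adjusted p = 0.256).

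Muscle genes were followed as differentiation markers and as progenitor markers. Myl4, an embryonic myosin light chain, read 8.89 and 8.24 in T48 and 9.47 and 9.33 in T50 (0.84, SE 0.11, adjusted p = 0.00999). Tnnc1, the troponin C of slow and cardiac muscle, read 8.21 and 7.76 in T48 and 8.67 and 8.52 in T50 (0.61, SE 0.09, adjusted p = 0.0155). In contrast Myod1, the factor that commits myoblasts, was lower in T50, with 9.76 and 9.55 in T48 and 9.16 and 9.13 in T50 (-0.51, SE 0.08, adjusted p = 0.0219). In none of these genes did the numbers overlap, as in 127 of the 141 genes past the test and 36.9% of all tested genes. Of 23 tested muscle differentiation genes 2 were higher and 1 lower, beside 0.44% and 0.56% of all tested genes. In both genotypes 16 read higher and 1 lower, beside 32.3% and 28.8% of all tested genes. The median was 0.14 (0.06 in the knockout, 0.21 in the wild type). Myh3, the embryonic myosin heavy chain, had a difference of 0.44 that narrowly missed the threshold (SE 0.09, adjusted p = 0.0539).

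None of the 8 tested muscle progenitor genes passed in limma (3 at an unadjusted p under 0.05, all lower), but 7 read lower in T50 in both genotypes and none higher, with a median of -0.14. Pax7, a marker of the resident progenitors, read 7.73 and 7.79 in T48 and 7.43 and 7.46 in T50 (-0.32, SE 0.08, adjusted p = 0.0948). Pax3, which marks the migrating precursors, had a difference of -0.16 (SE 0.08, adjusted p = 0.342), and Eya1 one of -0.20 (SE 0.08, adjusted p = 0.255). Myf5, the exception in sign, had one of -0.06 (SE 0.08). Fewer cells of a type and less RNA per cell cannot be told apart in such pools.

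Among the 13 tested tendon and connective tissue genes, Fmod, which encodes the collagen-binding proteoglycan fibromodulin, was higher in T50. It read 8.54 and 8.40 in T48 and 8.93 and 8.99 in T50 (0.49, SE 0.08, adjusted p = 0.0286). Dcn (decorin) had a difference of 0.36 (SE 0.08, adjusted p = 0.0843), Ogn of 0.31 (SE 0.08, adjusted p = 0.103), Thbs2 of 0.30 (SE 0.08, adjusted p = 0.123) and Lum (lumican) of 0.25 (SE 0.08, adjusted p = 0.166). Altogether 11 of the 13 read higher in both genotypes and none read lower in both, beside 32.3% and 28.8% of all tested genes. The median of 0.20 was the highest of the lists with 3 or more tested members. Taken by genotype, the knockout median was 0.08 and the wild-type median 0.24.

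Cartilage genes gave no common direction. Col2a1, the main collagen of early cartilage, was lower in T50, with 10.61 and 10.72 in T48 and 10.23 and 10.25 in T50 (-0.43, SE 0.08, adjusted p = 0.0374). Sox9, which drives condensation and activates Col2a1, had a difference of -0.28 (SE 0.08, adjusted p = 0.124). Cnmd (chondromodulin), a product of more mature cartilage, instead read 6.73 and 7.31 in T48 and 7.29 and 7.61 in T50 (0.43, SE 0.09, adjusted p = 0.0539), and Acan (aggrecan) had a difference of 0.29 (SE 0.11, adjusted p = 0.250). Over 19 tested genes 5 read higher and 7 lower in both genotypes, and the median was -0.03 (-0.10 for the knockout, 0.01 for the wild type). Of 10 joint genes, Osr2, a transcription factor of the forming joints, was lower, with 10.34 and 9.47 in T48 and 9.93 and 9.01 in T50 (-0.44, SE 0.08, adjusted p = 0.0316). In Osr2 the wild-type T48 array lay below the knockout T50 array, so the numbers separated only within a genotype. Gdf5, the classical joint marker, had a difference of -0.24 (SE 0.09, adjusted p = 0.224). Of the bone and hypertrophy list 3 members could be tested and 5 were too dim.

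**Figure D3:**
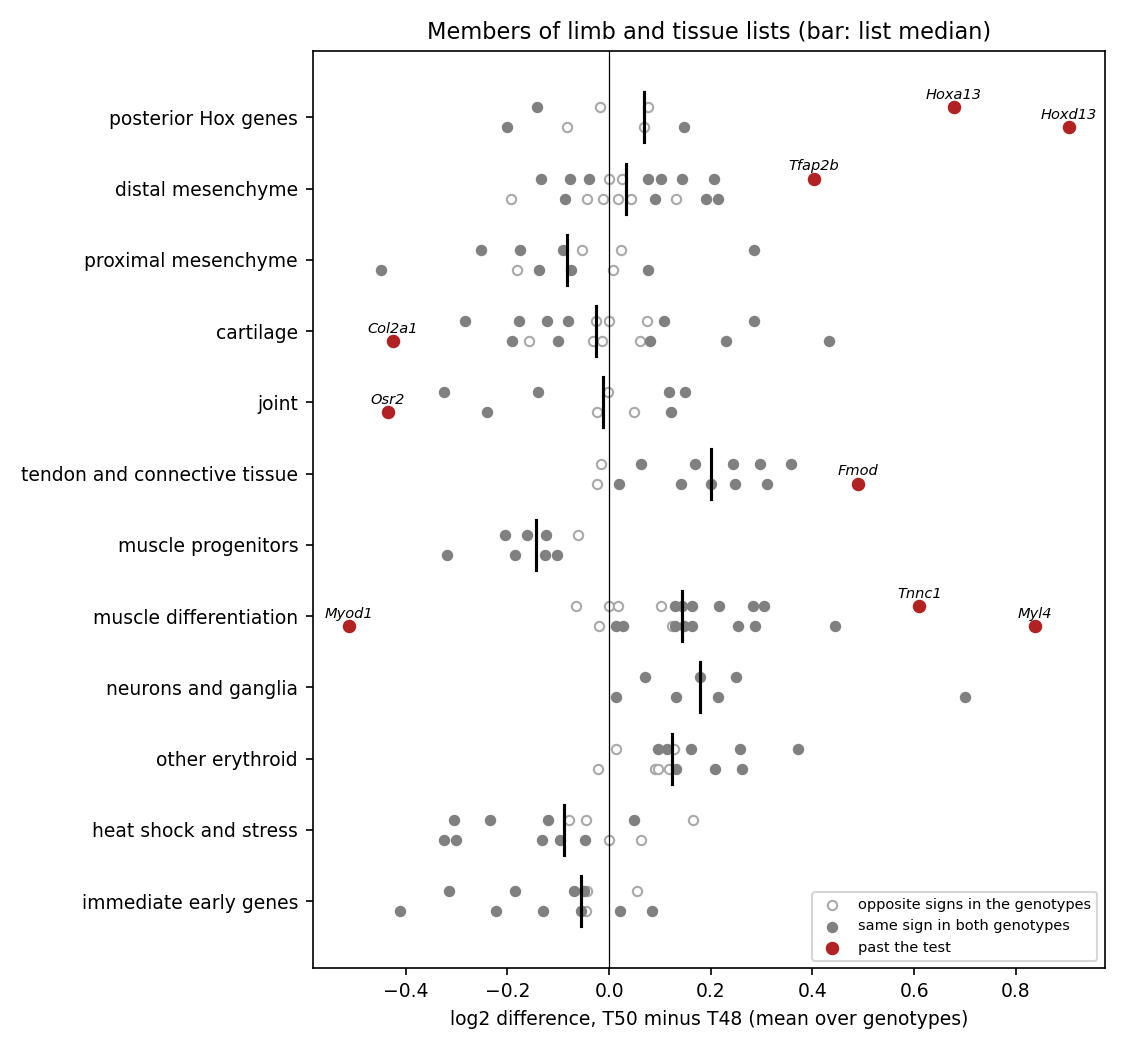
Difference T50 minus T48 of the tested members of 12 lists, as the mean over both genotypes on the log2 scale. Red points passed the test and are named, grey points had the same sign in both genotypes, open points had opposite signs, and each vertical bar is the list's median. The tendon, muscle differentiation and neuron members lie mostly to the right of 0 and the muscle progenitors all to the left, while cartilage and joint members lie on both sides.

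Markers of other tissues in the dissected limb were followed because they report what was cut along with the bud. All 7 tested neuron and ganglion genes read higher in T50 in both genotypes, beside 32.3% of all tested genes. Their median was 0.18, and none passed in limma (4 at an unadjusted p under 0.05, all higher). Nefl, a neurofilament subunit of axons, was the largest with 0.70 (SE 0.16, adjusted p = 0.0831). It read 5.92 and 6.21 in T48 and 7.06 and 6.48 in T50. The other 9 neuron genes on the array were too dim, among them Tubb3, a general neuronal marker. The summed log2 level of the 7 neuron genes was 47.3 and 47.0 in T48 and 49.5 and 47.8 in T50, knockout first.

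Of 14 tested erythroid genes other than globins, 8 read higher and none lower in both genotypes, with a median of 0.12. Alas2, which starts haem synthesis in red cells, had a difference of 0.37 (SE 0.08, adjusted p = 0.0768), and none passed in limma (4 at an unadjusted p under 0.05, all higher). The embryonic globins, by far the brightest erythroid transcripts, barely differed: Hbb-y read 13.26 and 13.31 in T48 and 13.27 and 13.45 in T50, a difference of 0.08 (SE 0.08). Hba-x had one of -0.09 (SE 0.08) and Hbb-bh1 one of 0.14 (SE 0.08). Hbb-b1, an adult-type globin, was dim, at 5.61 to 5.72 in 3 arrays and 6.49 in the wild type of T50 (0.39, SE 0.14, adjusted p = 0.245). Epidermal genes had a median of 0.14, with 8 of 14 higher and 1 lower in both genotypes. Trp63, the regulator of stratified epithelia, had a difference of 0.25 (SE 0.08, adjusted p = 0.152). Endothelial genes had a median of 0.05 over 21 members and macrophage genes one of 0.11 over 12, and none of either, nor of the epidermal genes, passed in limma (2 epidermal, 5 endothelial and 3 macrophage genes at an unadjusted p under 0.05). No cell type's part in the genes that passed was tested.

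Markers of neighbouring organs were mostly too dim to test. In the heart list 7 of 10 members on the array were too dim to test, in the liver and yolk sac list 9 of 12, in the neural tube list 7 of 9 and in the mesothelium and mesonephros list 5 of 8. Pitx1, which specifies the hindlimb, was too dim as well, with levels of 5.48 to 5.59. The 10 genes of limb mesenchyme identity were bright in every array, led by Tbx5, the forelimb factor, with 12.25 to 12.48. Their median difference was 0.02 (-0.03 for the knockout, 0.04 for the wild type) and none passed in limma (2 at an unadjusted p under 0.05). The 9 somite and flank genes on the array were bright enough to test, and their median was -0.05. Of 8 hindlimb and posterior trunk genes 4 were tested.

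**Figure D4:**
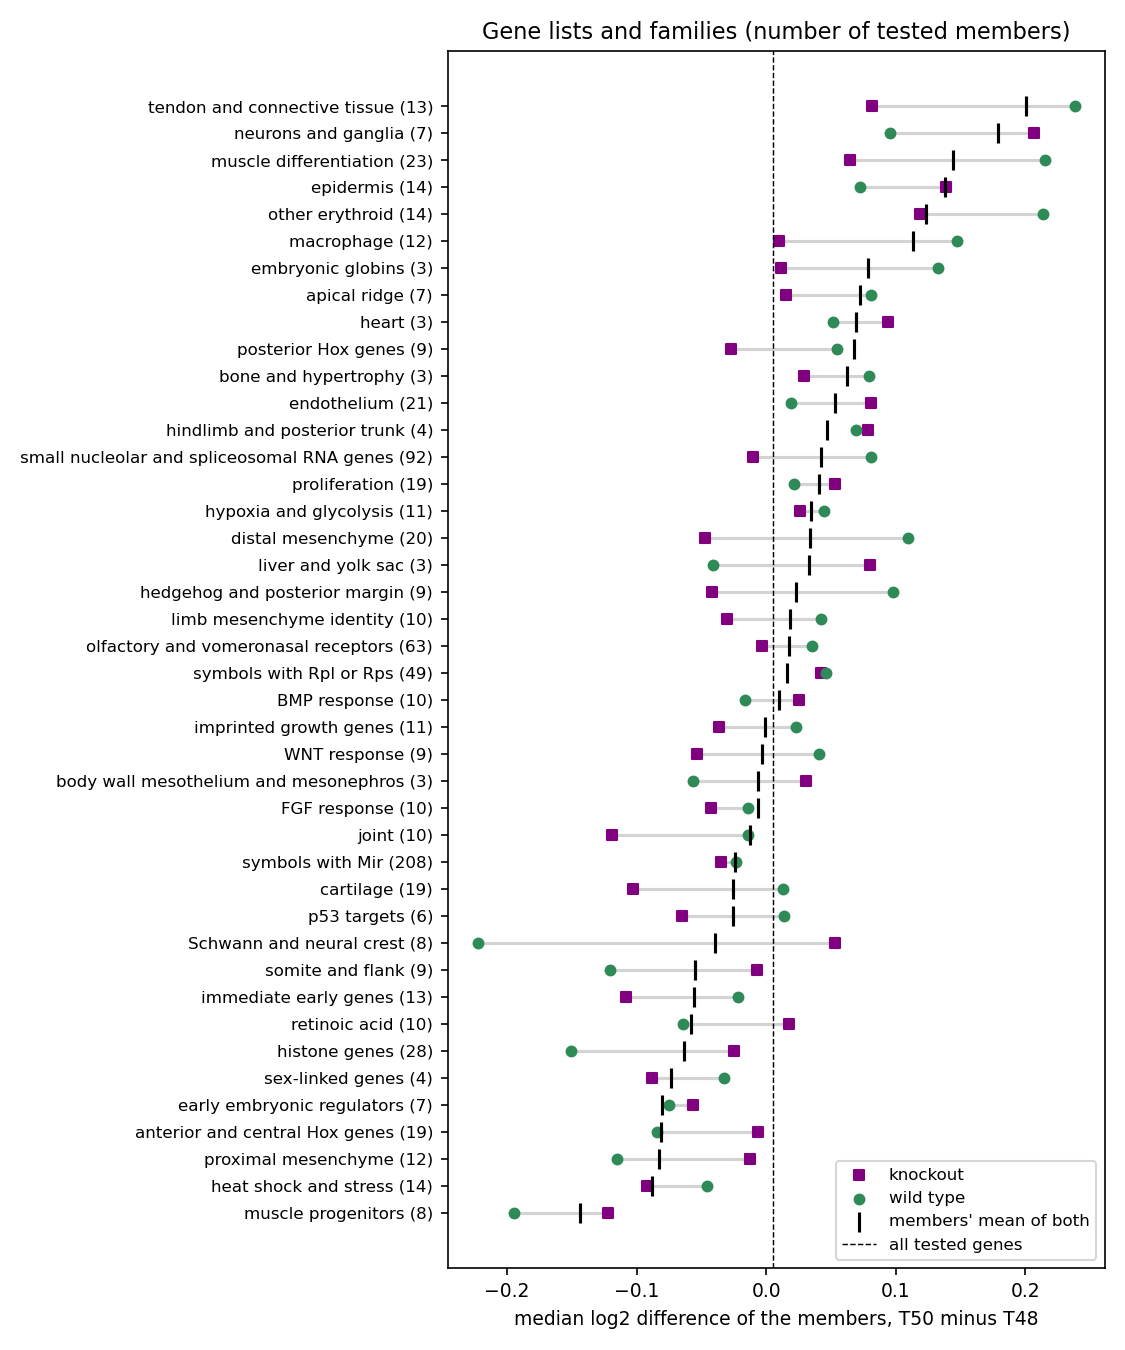
Median difference T50 minus T48 over the tested members of each list or family with at least 3, on the log2 scale, for the knockout (squares), the wild type (circles) and the members' mean of both genotypes (bars). The dashed line is the median of all tested genes. Tendon lies at the top with 0.20 and muscle progenitors at the bottom with -0.14, and in 15 of 42 lists the genotypes' medians lie on opposite sides of 0.

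Genes that can change with age or handling were followed as well, and whether either lies behind their values was not tested. Of 7 tested early embryonic regulators, genes that fade as embryos mature, 5 read lower and none higher in both genotypes, and the median was -0.08. Igf2bp1, an RNA-binding protein of fetal tissues, had a difference of -0.22 (SE 0.08, adjusted p = 0.192), and Dnmt3b one of -0.14 (SE 0.08, adjusted p = 0.417). Immediate early genes, which respond within minutes to dissection, read lower in both genotypes in 8 of 13 cases and higher in 2, with a median of -0.06. Jun came nearest to the threshold with -0.41 (SE 0.08, adjusted p = 0.0566), and Btg2 had -0.32 (SE 0.08, adjusted p = 0.0993). Of 14 heat shock and stress genes 8 read lower and 1 higher in both genotypes, with a median of -0.09. Ddit4 had a difference of -0.33 (SE 0.08, adjusted p = 0.0863). In these 3 lists none passed in limma, while 1, 4 and 4 members, all lower, had an unadjusted p under 0.05. Proliferation genes had a median of 0.04 over 19, and genes of hypoxia and glycolysis one of 0.03 over 11.

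Sex-linked genes separated the genotypes and not the numbers. Uty, on the Y chromosome, read 9.18 and 9.44 in the knockout arrays of T48 and T50, and 5.08 and 5.24 in the wild-type arrays. Kdm5d showed 9.09 and 8.83 against 5.56 and 5.41 in the same order, and Eif2s3y 9.56 and 9.65 against 5.37 and 5.26. Xist, transcribed from the inactive X chromosome, was high in all arrays, from 11.68 in the knockout array of T50 to 12.88 in the wild-type array of T50. The differences between the numbers were 0.21 for Uty (SE 0.08), -0.21 for Kdm5d (SE 0.08), -0.01 for Eif2s3y (SE 0.08) and -0.14 for Xist (SE 0.10). None passed in limma (2 at an unadjusted p under 0.05), and with the list left out 141 genes were called.

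Of 206 tested genes annotated as microRNAs 14 were lower and 3 higher in T50, 8.25% in all beside 1% of all tested genes, yet the median over the 206 was -0.02. By the annotated type of transcript, 0.76% of 12898 protein-coding genes passed, 2.04% of 587 long noncoding RNAs and 5.56% of 90 small nucleolar RNAs. The difference between these shares was not tested. Mir181b-1 read 10.31 and 10.51 in T48 and 8.63 and 9.07 in T50 (-1.56, SE 0.09, adjusted p = 6.30e-05). Mir181a-2 read 7.24 and 7.80 in T48 and 6.57 and 7.05 in T50 (-0.71, SE 0.08, adjusted p = 0.00355). Mir181c was lower by a similar amount, with -0.66 (SE 0.08, adjusted p = 0.00641), and Mir181b-2 by less, with -0.51 (SE 0.08, adjusted p = 0.0171). Mir181d lay between 6.06 and 6.40 in all arrays, a difference of -0.04 (SE 0.08, adjusted p = 0.849). Mir181d lies beside Mir181c on the same strand and shares its seed.

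Of the loci with the AGUGCAA seed, Mir130a read 6.05 and 6.34 in T48 and 5.48 and 5.58 in T50 (-0.67, SE 0.08, adjusted p = 0.00638). Mir301 read 6.03 and 6.24 in T48 and 5.36 and 5.59 in T50 (-0.66, SE 0.08, adjusted p = 0.00438). Their T50 means of 5.53 and 5.47 lay under the filter level of 5.60, so both were tested only through T48. Their p-values are therefore no separate support, and differences in this dim range of the arrays are compressed. Mir721 had a difference of -0.01 (SE 0.08). Mir301b, which shares its 5p seed with that of Mir301, had a difference of -0.31 (SE 0.09, adjusted p = 0.154). Mir103-2 had one of -0.58 (SE 0.08, adjusted p = 0.00939) and Mir107 one of -0.48 (SE 0.08, adjusted p = 0.0219). Mir18 and Mir19a, neighbours in the cluster best known for driving proliferation, had differences of -0.67 (SE 0.08, adjusted p = 0.00438) and -0.86 (SE 0.12, adjusted p = 0.0105). Mir708 was lower by 0.61 on the log2 scale and Mir99a by 0.50, while their seed relatives Mir28a and Mir99b differed by -0.04 and 0.00. Mir140, a microRNA of cartilage, had a difference of -0.54 (SE 0.09, adjusted p = 0.0293).

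A probe set at such a locus can catch the primary transcript, the hairpin or the mature strand, and the sources used here do not say which. Genes that span the hairpins had smaller differences and none passed the test. Nr6a1, which spans Mir181a-2 and Mir181b-2, had a difference of -0.07, Pank2 (Mir103-2) one of -0.14, Pank1 (Mir107) one of -0.17, Wwp2 (Mir140) one of -0.10 and Ska2 (Mir301) one of -0.02. Rian, which spans Mir1188, had one of 0.20, and the smallest adjusted p among these hosts was 0.304. Mir17hg, the host transcript of the cluster with Mir18 and Mir19a, had a knockout difference of -0.03 and a wild-type difference of -0.57 (mean -0.30, SE 0.11, adjusted p = 0.249), and Mir99ahg, that of Mir99a, a mean of -0.16 (SE 0.08, adjusted p = 0.403). In the mean the printed hosts thus had the sign of their loci, but not in each genotype. Nr6a1 had a knockout difference of 0.015 and a wild-type difference of -0.153, and Ska2 had 0.06 and -0.09. Host and locus were not tested against each other. Whether the microRNA loci differ because of RNA size selection, labelling or transcription was not tested.

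**Figure D5:**
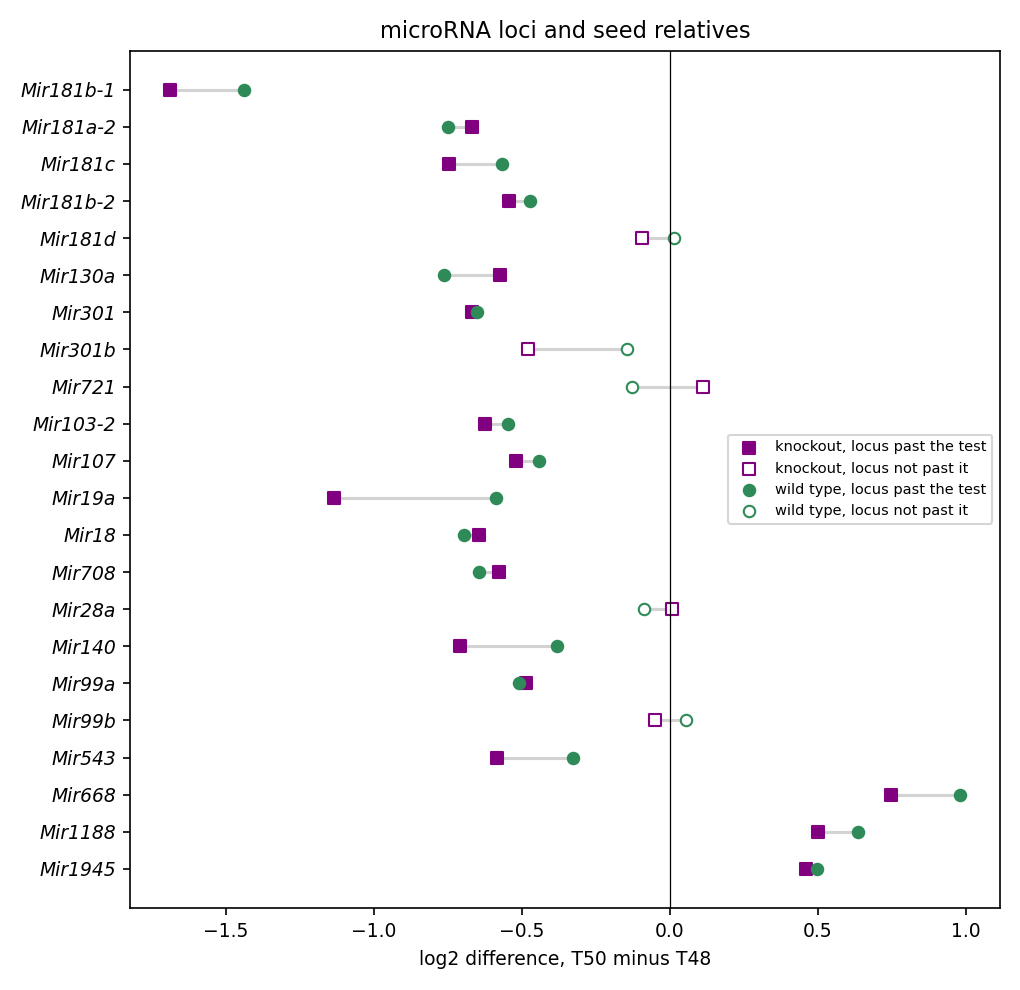
Difference T50 minus T48 on the log2 scale at the 17 microRNA loci that passed the test (filled) and 5 relatives with a common seed that did not (open), in the knockout (squares) and the wild type (circles). Members of a seed family stand next to each other. In the filled loci both genotypes lie on the same side of 0, as in all genes past the test, and the open loci other than Mir301b lie close to 0.

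The 3 microRNA loci that were higher in T50 were Mir668 (0.86, SE 0.08, adjusted p = 0.00192), Mir1188 (0.57, SE 0.08, adjusted p = 0.0117) and Mir1945 (0.48, SE 0.08, adjusted p = 0.0217). Mir668 and Mir1188 lie in the imprinted Dlk1–Dio3 domain of chromosome 12, whose noncoding RNAs are expressed from the maternal chromosome. The domain was singled out after its values were seen. Of its 48 tested transcripts 7 were higher and 1 lower, Mir543 with -0.46 (SE 0.09), beside 0.44% and 0.56% of all tested genes. At an unadjusted p under 0.05 in limma 17 were higher and 4 lower. The lower ones were Mir543, Mir380 (-0.42), Mir300 (-0.32) and Mir666 (-0.21). The domain's 6 small nucleolar RNAs all read higher in both genotypes, beside 32.3% of all tested genes, and 4 passed. Of 84 small nucleolar RNAs outside the domain 0 were higher and 1 lower. DQ267100 read 9.10 and 9.23 in T48 and 9.61 and 9.80 in T50 (0.53, SE 0.08, adjusted p = 0.0141). DQ267101 had a difference of 0.49 (SE 0.08), AF357355 of 0.52 (SE 0.10) and DQ267102 of 0.42 (SE 0.08). Among microRNA loci outside the domain, 13 of 170 were lower and 1 higher, with a median of -0.04. The 36 microRNA loci inside it had a median of 0.10, with 2 higher and 1 lower. Meg3, a long noncoding RNA of the domain, had a difference of 0.16 (SE 0.08, adjusted p = 0.392), and its neighbour Dlk1, a protein-coding gene, one of -0.14 (SE 0.08, adjusted p = 0.429). Called genes that were next to each other among the tested genes, in RefSeq order, formed 7 pairs, and in 6 both members had the same direction. H2bc3 and H2ac4 were the exception. Several pairs shared members among the domain's 4 called small nucleolar RNAs. The share for all neighbouring tested genes was not computed.

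Further genes past the test with known roles in limb or mesenchyme, picked here after their values were seen, went both ways. Bmp5, a growth factor of skeletal outlines, was higher in T50 by 0.46 (SE 0.08, adjusted p = 0.0316), Epha3, a guidance receptor, by 0.51 (SE 0.08, adjusted p = 0.0171), and Agtr2, an angiotensin receptor of fetal mesenchyme, by 0.43 (SE 0.08, adjusted p = 0.0471). Lower were Snai1, a repressor of epithelial genes, with -0.42 (SE 0.08, adjusted p = 0.0389), and the transcription factor genes Prdm16 with -0.42 (SE 0.08, adjusted p = 0.0368) and Sim2 with -0.44 (SE 0.08, adjusted p = 0.0316). Of the signalling lists, hedgehog, FGF, WNT, BMP and retinoic acid, none of the 48 tested members passed in limma (3 higher and 4 lower at an unadjusted p under 0.05), and the list medians lay between -0.06 and 0.02, with opposite signs in the genotypes for all but the FGF list.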

How the data were processed

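The authors deposited a table of log2 expression values, 1 per probe set and array, which was used as it stands. Its sorted values are identical in 3 arrays and within 0.00171 of them in the knockout array of T48, so the authors' log2 values were quantile-normalized across arrays, which hides any shift common to most genes. Platform, background correction and summarisation are not given in the sources used here. Per the labels' protocols, TRIzol was used for total RNA and the cRNA carried biotin. Arrays have no read depth, and their number limits the precision.

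Probe sets were named from the platform annotation (23185 of 25206, none with several names), and microRNA sequences are RefSeq's (GRCm38.p6). Genes with a mean at or above percentile 40 were fitted with limma 3.58.1 (lmFit and eBayes) in R 4.3.3, number plus genotype as a block, two-sided, Benjamini-Hochberg threshold 0.05. The design leaves 1 residual degree of freedom, so differences in the 2 genotypes could not be tested against each other. P-values rest on the gap between the knockout and wild-type differences, moderated by a spread estimated over all genes. They do not measure the spread between replicate pools, as there was 1 pool per number and genotype. Nothing in the labels says that a number pairs a knockout with a wild-type pool. In simulated data the fit returned the differences put in, but in some runs more of its calls were false than the threshold states. The simulated spreads were drawn from the prior that limma fitted here, so the simulation cannot show how the fit fares on these arrays.

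The comparison, the 39 gene lists and the families were chosen with earlier results of these data known. Named are up to 14 genes per direction by p among those past the threshold with the same sign in both genotypes, 2 to 4 members of the lists described by p, every measured sex-linked, globin and posterior Hox gene, Shox2, and genes at least 1.5-fold apart in opposite directions. Other names were chosen after their values were seen. Figures were made in Python 3.11.15 (matplotlib 3.10.9). The alternatives were the fit without block, other filters and normalizations, rounding, an intensity trend, a robust fit, unnamed probe sets, other thresholds and each array left out.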

Additional observations from a re-analysis of the deposited data

Results flagged for a closer look

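Ppp1cc, which encodes a catalytic subunit of protein phosphatase 1, was the 1 tested gene that differed at least 1.5-fold between the numbers in each genotype but in opposite directions. It read 6.77 in T48 and 7.42 in T50 in the knockout, a difference of 0.64, and 7.65 and 7.06 in the wild type, a difference of -0.59. With 1 array per number and genotype the difference between the genotypes was not tested.

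Probe sets without a gene name lay outside the main comparison. When they were tested together with the named genes, 9 of the 1029 that were bright enough passed the adjusted threshold, 7 higher and 2 lower in T50, or 0.875% of them.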

How the results depend on the processing

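All 141 genes, where still tested, had the same direction in each of the 16 alternatives, but most of these could not change it. The fit without block, the filters, the unnamed probe sets, the trend, the robust fit and the threshold leave each gene's difference as it was. Leaving out an array gives the difference of 1 genotype, and all 141 had the same sign in both. List medians were less stable: with 1 array left out 8 to 12 of them moved by more than the spread, and the filter at percentile 60 moved 10. In 15 of 42 lists the knockout and wild-type medians had opposite signs, among them posterior Hox (-0.03 and 0.05), distal mesenchyme (-0.05 and 0.11), limb mesenchyme identity (-0.03 and 0.04) and cartilage (-0.10 and 0.01). The count of calls moved widely. With the genotype block left out and the number alone in the fit, 0 genes were called (0 higher, 0 lower). In limma 968 then had an unadjusted p under 0.05 instead of 2182. With no filter on dim probe sets and with values rounded to 2 decimals the calls were also 0. The prior degrees of freedom that limma estimated from all genes were 8.56 in the main fit, 4.10 without the block, 2.61 without the filter, 1.83 with 2 decimals and 53.2 with an intensity trend. Rounding to 2 decimals made the differences of the genotypes equal in 354 genes. With 3 decimals, an alternative chosen after seeing the data, the prior degrees of freedom were 8.49 and 140 of the 141 genes were called. The intensity trend called 762 genes (317 higher, 445 lower), testing unnamed probe sets too 90 (38 and 52, with 81 of the 141 among them), and a threshold of 0.1 gave 341 (162 and 179). Of the 141 genes, 109 were called after quantile normalization, 129 after median centring, 117 in the robust fit and all 114 still tested with a filter at percentile 60. Why the other counts moved was not tested. A fold of 1.2 was passed by 819 genes and a fold of 2 by 10, beside 52 at 1.5. Leaving out 1 array leaves the difference within the other genotype, with no test, and between 90 and 112 genes then passed 1.5-fold. Low signals are compressed, which limits Pcdhgb5, H2bc4, Mir130a and Mir301 in T50. Of these, H2bc4, Mir130a and Mir301 passed the filter only through T48.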
